A study of Homo sapiens with 2 samples.

Results

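The genes described here make up the sterol and fatty acid synthesis pathway controlled by sterol regulatory element binding proteins (SREBPs), with the genes of its regulators and of the liver X receptors (LXR). They were chosen by name, from a list of enzymes and regulators, and 35 of the 46427 genes in the deposited table belong to the list. The list holds 7 genes of the mevalonate pathway, 11 of sterol synthesis, 7 of fatty acid synthesis, 6 of the SREBP machinery and 4 related to LXR. Among them, 6 encode enzymes that need iron for catalysis (CYP51A1, MSMO1, SC5D, SCD, FADS1 and FADS2), and these were compared with the other 29.

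RNA of NK92 cells, an established human natural killer (NK) cell line, was sequenced after exposure to PPMX-T003, an antibody that blocks transferrin receptor 1, the receptor through which cells take up iron bound to transferrin. The culture medium held human serum. For 6 h the exposed dish was kept with PPMX-T003 at 10 µg/mL and the unexposed dish without antibody. Both dishes were started in fresh medium with cells from the same pre-incubation of 18 h. The libraries were stranded and made from polyadenylated RNA, with 1 library per condition, so no difference reported here has a replicate check. The table names its columns by 0 h and 6 h although the methods describe the same culture time for both dishes; the earlier name was read as the unexposed dish, and an effect of harvest time cannot be told apart from one of the antibody.

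Cholesterol is made from acetyl-CoA by way of mevalonate, farnesyl diphosphate, squalene and lanosterol, and several late steps use oxygen and an iron centre, either haem or a pair of iron ions held by histidines. When membrane cholesterol is low, SCAP escorts the SREBP precursors from the endoplasmic reticulum to the Golgi, where they are cleaved to release transcription factors, whereas INSIG proteins hold SCAP back when sterol is plentiful. LXR proteins respond to oxidised sterols and activate genes of cholesterol export and, through SREBF1, of fatty acid synthesis.

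Totals were 46766416 counts in the unexposed and 43178462 in the exposed library. NK markers were abundant in both, as shown by 1083 CPM of NKG7 in the unexposed and 1207 CPM in the exposed library, where CPM is a count relative to the library total after TMM (trimmed mean) scaling. The 8 NK markers summed to 3784 CPM without and 4198 CPM with PPMX-T003, with IL2RB the most abundant. Beyond counting error, 5 were higher and 1 (NCAM1) lower in the exposed library. After the first fit on length and GC content given below, IL2RB and CD7 lost their calls. After the second fit NKG7, CD7 and NCAM1 lost theirs, and KLRD1 was called higher. GZMB and PRF1 were higher after both fits. Of 3 T cell markers, CD3D and CD3G had 0 counts in both libraries and TRAC had 1501 and 1312 counts. The B cell marker MS4A1 was at 0 in both libraries, where a count of 0 allows up to 0.0641 CPM in the unexposed and 0.0695 CPM in the exposed library. Of 3 myeloid markers, which summed to 0.513 and 0.371 CPM, CD14 had 0 and 7 counts, CSF1R 22 and 9, and LYZ 2 and 0. In bulk RNA, fewer cells of a type and less RNA per cell cannot be told apart, and the part of the higher NK markers in the results below was not tested.

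For each gene, the log2 change is the exposed minus the unexposed level in log2 CPM with a prior count of 2, followed in parentheses by its 95% interval, an exact Clopper-Pearson interval of the share of a gene's counts that the exposed library holds. These intervals and the limits for counts of 0 cover counting error only, not the variation between cultures. A gene is called higher or lower beyond counting error where this interval lies on 1 side of 0. With a minimum of 20 counts over both libraries, 34 of the 35 genes entered the comparison, together with 13665 genes in all. The exception was ABCA1, which had 7 and 12 counts.

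The pathway was expressed at almost the same total level in both libraries, without a common direction among its genes. The 34 genes summed to 3491 CPM without and 3496 CPM with PPMX-T003, a log2 change of 0.0019 (-0.0082 to 0.012). Their median log2 change was 0.0075, beside -0.0020 over all genes tested, with 19 above and 15 below 0. SREBF1 and MYLIP were at least 1.2-fold higher, which is 5.88% of the 34 genes against 12.2% of all genes tested. CYP51A1 and ABCG1 were at least 1.2-fold lower, again 5.88%, against 12.4% of all genes. CYP51A1 lay short of 1.2-fold with upper quartile scaling (-0.25) and after 2 fits on length and GC content given below (-0.20 and -0.22). All genes tested include shallow ones, and with at least 200 counts their shares were 5.71% higher and 7.10% lower, near those of the pathway.

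Counting error was small for most of these genes, so smaller differences could be seen. Intervals lay above 0 for 7 genes (PMVK, LSS, EBP, FASN, SREBF1, NR1H2 and MYLIP), or 20.6%, against 21.8% of all genes tested. They lay below 0 for 11 genes (ACAT2, IDI1, FDFT1, SQLE, CYP51A1, MSMO1, SC5D, ACACA, INSIG2, STARD4 and ABCG1), or 32.4%, against 23.9%. Since these genes are deeply covered, the 28 with at least 1000 counts were also set beside the 8359 genes with that minimum, which does not match depth gene by gene. In that set 17.9% of the 28 lay above 0 and 35.7% below, against 27.8% and 32.1% of the 8359. The lower share was thus near that of the 8359 genes. After the first fit given below 5 of the 34 genes (14.7%) were lower, against 22.2% of all genes. After the second fit, with the longest transcripts, 9 (26.5%) were lower, against 21.0% of all genes, so the fits differed in this share. As measured, 16 of the 34 had intervals that held 0.

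Levels per length, read from the deposited TPM, which was rounded to whole numbers, spanned a wide range among the 35 genes. EBP was at the top with 500 TPM without and 552 TPM with PPMX-T003, followed by FDPS at 323 and 329 TPM and ACLY at 260 and 249 TPM. ABCA1 was listed at 0 TPM in both libraries, and 7 of the 35 genes lay under 10 TPM in each. The median was 35 TPM in both libraries. The mevalonate genes had the highest median of the role groups, 104 and 94 TPM, and the LXR-related genes the lowest, 5 TPM in each library. The 6 iron-requiring enzymes had medians of 45 and 36.5 TPM and the other 29 genes 35 TPM in each. NK92 cells thus contained transcripts of every listed step from acetyl-CoA to cholesterol, and the genes under 10 TPM were TM7SF2, FADS1, FADS2, SREBF1, ABCA1, ABCG1 and MYLIP.

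**Figure D1:**
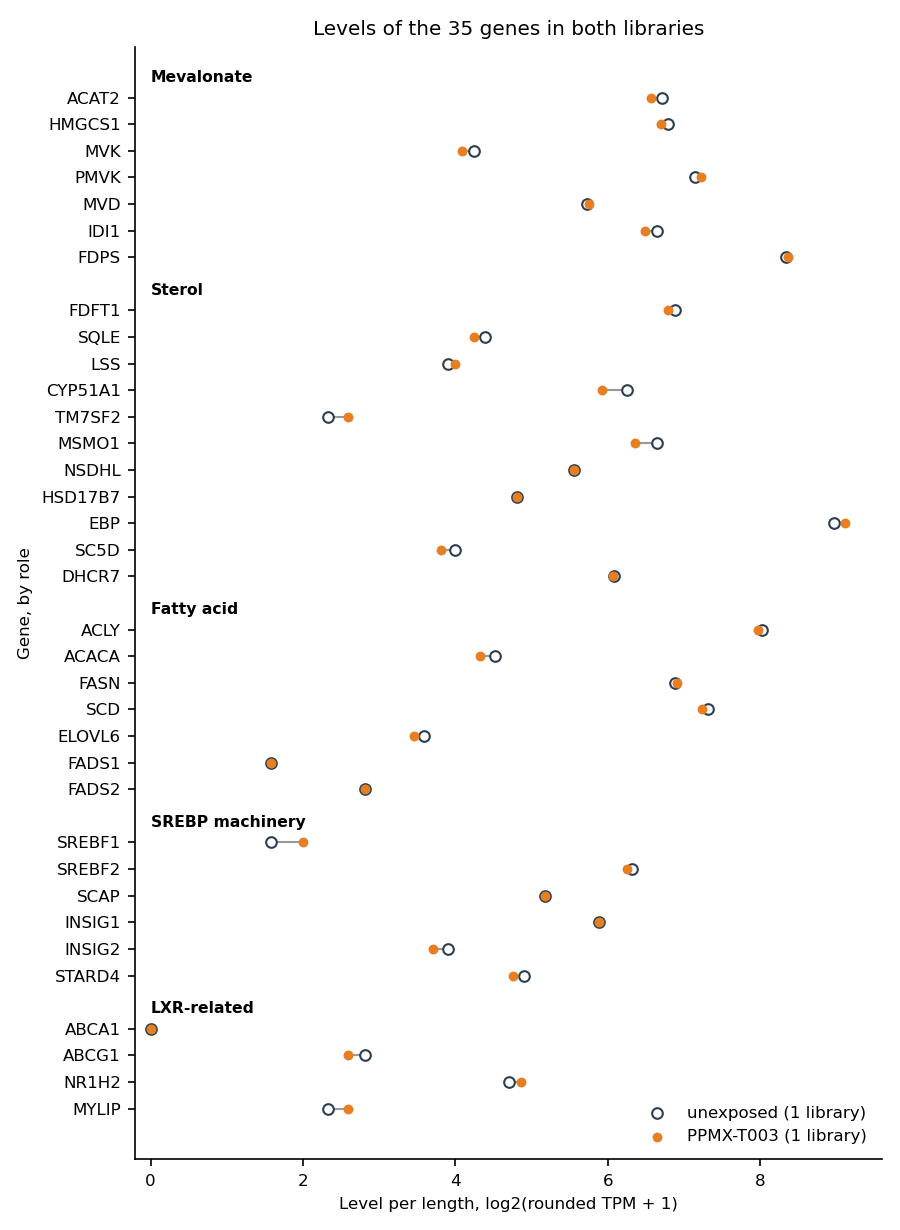
Level per length of each of the 35 genes, as log2(rounded TPM + 1), in the unexposed library (open circles) and the PPMX-T003 library (filled circles), 1 library each, grouped by role. The distance between genes, from 0 TPM for ABCA1 to 500 and 552 TPM for EBP, is far larger than the distance between the libraries for any gene.

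In the mevalonate pathway, which turns acetyl-CoA into the isoprenoid units of sterols, 3 genes differed slightly beyond counting error as measured, and none kept its call after the first fit on length and GC content given below. ACAT2, the cytosolic thiolase that joins acetyl-CoA units, was at 70.5 CPM in the unexposed and 66.5 CPM in the exposed library, a log2 change of -0.084 (-0.16 to -0.012). IDI1, which isomerises isopentenyl diphosphate, was at 129 and 121 CPM (-0.093, -0.15 to -0.039). PMVK, the kinase of phosphomevalonate, was at 63.5 and 70.2 CPM (0.15, 0.072 to 0.22). With upper quartile scaling the interval of ACAT2 held 0. The intervals of IDI1 and PMVK held 0 after both fits, with PMVK at 0.038 and -0.0011, so no direction is given for PMVK.

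The other 4 mevalonate genes had intervals that held 0. HMGCS1, which makes HMG-CoA, was at 254 and 248 CPM (-0.036, -0.074 to 0.0019), and its interval lay below 0 with scaling by total counts or by the median of ratios. FDPS, which makes farnesyl diphosphate, was at 186 and 191 CPM (0.043, -0.00020 to 0.087), and its interval lay above 0 with upper quartile scaling. For both of these abundant transcripts the scaling set whether the interval held 0, and the sign was the same under the 4 scalings. The sign turned after the fits given below. HMGCS1 was at 0.075, with an interval above 0, and at 0.033. FDPS was at -0.020 and at -0.065, the latter with an interval below 0. No direction is therefore given for HMGCS1 and FDPS. MVK, the mevalonate kinase, had 909 and 879 counts (0.069, -0.067 to 0.20), and MVD, the mevalonate diphosphate decarboxylase, 2040 and 1980 counts (0.074, -0.016 to 0.16). The median of the 7 genes was 0.043, and their summed level was 766 and 763 CPM. After the fits given below this median was -0.020 and -0.036, so no direction is given for the group. ACAT2, MVK and IDI1 overlap exons of neighbours on the opposite strand, and since the use of strand in counting is not stated, reads of such partners cannot be told apart.

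In sterol synthesis proper, CYP51A1, MSMO1 and SC5D, the enzymes that need iron, were lower in the exposed library as measured, whereas EBP and LSS were higher. CYP51A1 (NCBI Gene ID 1595, chr7:92112153-92134803, minus strand), the haem-containing lanosterol demethylase, had 4897 counts without and 3754 with PPMX-T003, or 105 and 87.0 CPM. Its log2 change was -0.27 (-0.33 to -0.20), and 411 of the 8359 genes with at least 1000 counts had a lower value. MSMO1 (6307, chr4:165327669-165343164, plus strand), the di-iron oxidase that removes methyl groups from sterols, had 4496 and 3545 counts, or 96.1 and 82.2 CPM. The log2 change of MSMO1 was -0.23 (-0.29 to -0.16), with 645 of the 8359 genes lower. SC5D (6309, chr11:121292771-121313410, plus strand), a sterol desaturase that acts later, had 2108 and 1793 counts, or 45.0 and 41.6 CPM (-0.12, -0.21 to -0.025), and its interval held 0 after both fits given below (-0.015 and -0.061). CYP51A1 and MSMO1 thus lay near the low end of well covered genes, and SC5D, with 2031 genes below it, did not.

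EBP (10682), the sterol isomerase, had 11714 counts without and 12391 with PPMX-T003, or 250 and 287 CPM, and a log2 change of 0.20 (0.16 to 0.23), which was 0.11 after either fit. LSS, which closes the rings of lanosterol, was at 28.8 and 32.7 CPM (0.18, 0.071 to 0.29). EBP and LSS were the 2 sterol genes higher beyond counting error, and 589 and 747 of the 8359 genes had a higher value. The interval of LSS held 0 after the first fit (0.11) and lay above 0 after the second (0.14). The enzymes that feed LSS were slightly lower. FDFT1, the squalene synthase, was at 110 and 106 CPM (-0.062, -0.12 to -0.0048), and its interval held 0 with upper quartile scaling. SQLE, the squalene epoxidase, which carries a flavin and no iron, was at 27.0 and 24.6 CPM (-0.13, -0.25 to -0.014). The intervals of FDFT1 and SQLE held 0 after the first fit (-0.057 and -0.100) and lay below 0 after the second (-0.085 and -0.13).

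The remaining 4 sterol genes did not differ detectably at this depth. NSDHL and HSD17B7, which complete the removal of methyl groups begun by MSMO1, had 1671 and 1610 counts (0.064, -0.036 to 0.16) and 855 and 799 counts (0.019, -0.12 to 0.16). DHCR7, the last reductase before cholesterol, had 3737 and 3537 counts (0.038, -0.029 to 0.10). TM7SF2, a sterol reductase that acts after CYP51A1, had 165 and 169 counts (0.15, -0.17 to 0.47), and it shares exons on the same strand with VPS51, which had 3266 and 3523 counts, so its count is uncertain. Over the 11 sterol genes the median was 0.019, and the sum was 800 CPM without and 803 CPM with PPMX-T003. The median was -0.022 without TM7SF2, and -0.015 and -0.056 after the fits given below, so no direction is given for it. Within the group, the summed level of the 3 iron-requiring enzymes went from 246 to 211 CPM (-0.22, -0.26 to -0.18) and that of the other 8 from 554 to 592 CPM (0.096, 0.071 to 0.12). Without EBP, the other 7 summed to 303 and 305 CPM (0.0055, -0.029 to 0.040), so the higher sum came from EBP. The steps of sterol synthesis therefore did not move together, and the lower CYP51A1, MSMO1 and SC5D and the higher EBP nearly cancelled in the sum.

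**Figure D2:**
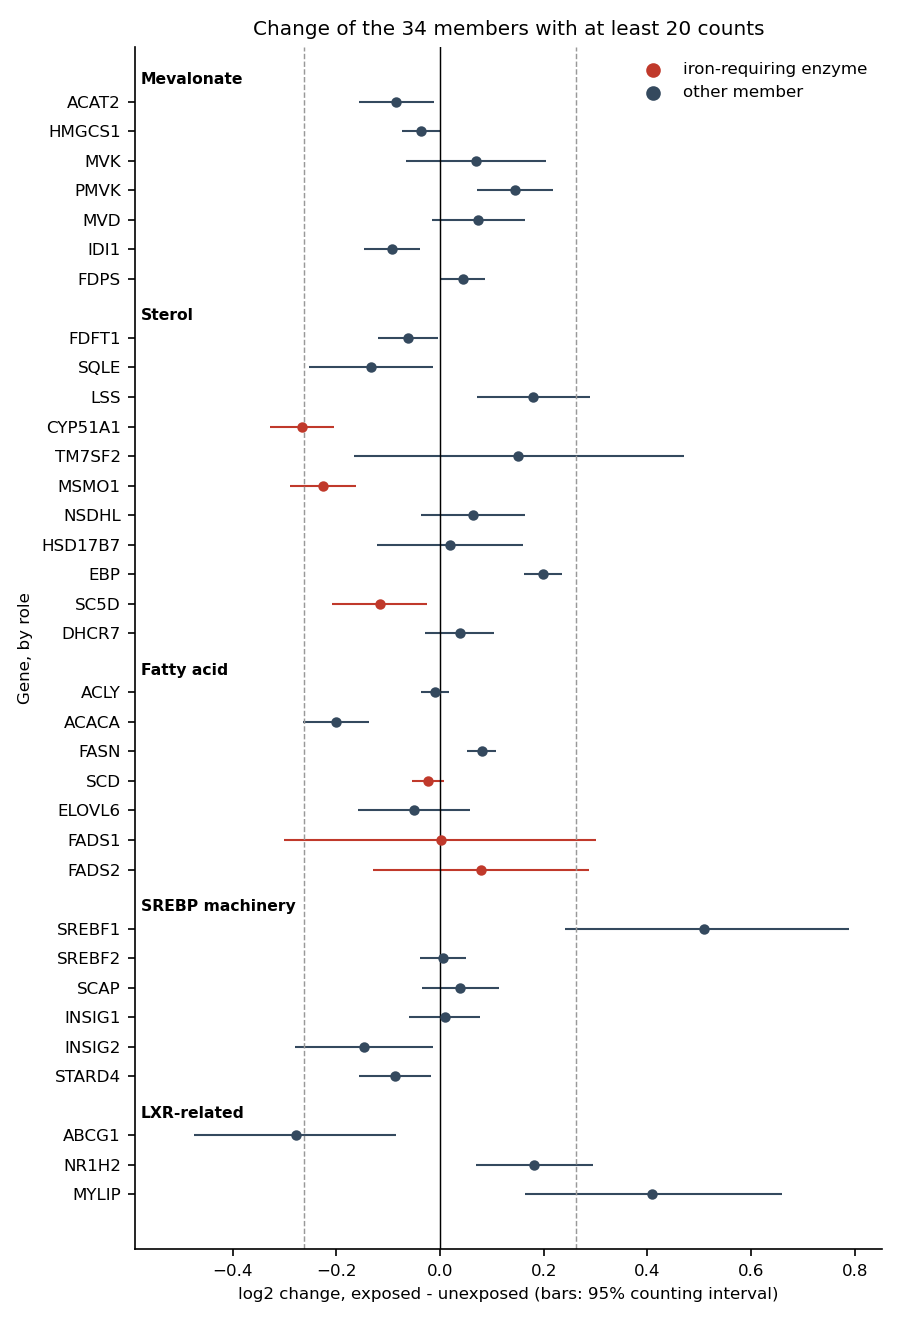
Log2 change, exposed minus unexposed, of the 34 genes with at least 20 counts, grouped by role, with 95% Clopper-Pearson intervals for counting error (1 library per condition); dashed lines mark 1.2-fold. CYP51A1 (-0.27), MSMO1 (-0.23) and SC5D (-0.12), in the colour of iron-requiring enzymes, lie left of 0, whereas the intervals of SCD, FADS1 and FADS2 hold 0.

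Promoters of these genes were read because CYP51A1 and MSMO1 were lower while EBP was higher within 1 pathway. RefSeq windows on GRCh38.p14, from 250 bases before to 50 bases after a gene start, matched 30 of the 35 genes with 40 windows, some genes having several starts. Short motifs were searched on both strands. The letters CCAAT, bound by NF-Y, occurred in 25 of the 40 windows (62.5%) and in 34.6% of all 35116 windows. The letters GGGCGG, a GC box bound by Sp1, occurred in 36 of 40 (90.0%) and in 45.0% of all windows. The letters TCACNCCAC, a form of the sterol regulatory element in which N is any base, occurred in 1 of 40 (2.50%) and in 1.13% of all windows. No other form of the element was searched, and ABCG1, SQLE, ACAT2, FASN and FDFT1 had no window. The lack of a match therefore does not show that a gene lacks the element. The 35116 windows were not limited to genes expressed in these cells, so these shares are not matched for expression and are not read as particular to the pathway. Matches to different motifs were allowed to overlap, and such matches are descriptions of letters, not of binding.

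The last 140 bases before the start are shown for the 3 iron-requiring sterol genes and for EBP, each on the strand of its gene, with matches to the 3 motifs in capitals. CYP51A1 (chr7:92134478-92134617, minus strand) holds a GC box on the opposite strand, whose first printed base is at -61 from the start, and no CCAAT; unlike the others, this start lies inside the coordinates given for the gene above, so the stretch is not upstream of the whole gene. MSMO1 (chr4:165327529-165327668, plus strand) holds CCAAT at -139, -76 and -34 and a GC box at -53. SC5D (chr11:121292631-121292770, plus strand, the most upstream of its starts) holds CCAAT on the opposite strand at -56. EBP (chrX:48521668-48521807, plus strand) holds CCAAT on the opposite strand at -70 and -30 and a GC box at -101. In the whole windows CYP51A1, MSMO1, SC5D and EBP all held a GC box, that of SC5D at -184 from its first start and another at -20 from its second, and all but CYP51A1 held CCAAT. Since the window of CYP51A1 is not at the outer end of its gene, nothing is drawn from a comparison of these letters.
CYP51A1: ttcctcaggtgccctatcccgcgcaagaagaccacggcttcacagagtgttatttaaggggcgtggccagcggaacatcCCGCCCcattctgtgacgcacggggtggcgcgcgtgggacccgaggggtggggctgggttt
MSMO1: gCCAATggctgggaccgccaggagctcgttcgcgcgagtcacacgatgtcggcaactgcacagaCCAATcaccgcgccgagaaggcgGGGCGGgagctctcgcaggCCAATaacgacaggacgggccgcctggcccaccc
SC5D: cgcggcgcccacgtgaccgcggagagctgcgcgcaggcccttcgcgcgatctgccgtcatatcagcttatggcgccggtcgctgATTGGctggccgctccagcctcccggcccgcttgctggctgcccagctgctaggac
EBP: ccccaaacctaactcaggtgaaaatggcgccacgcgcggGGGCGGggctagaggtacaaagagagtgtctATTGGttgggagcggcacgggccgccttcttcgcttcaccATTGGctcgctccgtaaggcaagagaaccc

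In fatty acid synthesis the carboxylase gene was lower. ACACA, whose product acetyl-CoA carboxylase makes malonyl-CoA, had 4509 counts without and 3619 with PPMX-T003, or 96.3 and 83.9 CPM (-0.20, -0.26 to -0.14). FASN, the fatty acid synthase, had 20680 and 20154 counts, or 442 and 467 CPM (0.080, 0.052 to 0.11), but was lower (-0.082, -0.11 to -0.054) after the first fit on length and GC content, so no direction is given for it. ACLY, which supplies cytosolic acetyl-CoA from citrate, was at 500 and 497 CPM (-0.0096, -0.036 to 0.017). Of these 3 enzymes in a row, ACACA alone was thus on the same side of 0 beyond counting error with and without the fits.

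SCD, the iron-requiring desaturase that makes oleate, was the most abundant iron-requiring transcript, with 159 TPM without and 150 TPM with PPMX-T003. Its level was 371 and 365 CPM (-0.024, -0.055 to 0.0075), and with scaling by the median of ratios its interval lay below 0. After the first fit its interval lay above 0 (0.056, 0.024 to 0.087), so no direction is given for SCD. ELOVL6, the elongase of palmitate, had 1496 and 1332 counts (-0.050, -0.16 to 0.057). FADS1 and FADS2, the desaturases of polyunsaturated fatty acids, were scarce, with 194 and 179 counts of FADS1 (0.0011, -0.30 to 0.30) and 386 and 376 counts of FADS2 (0.079, -0.13 to 0.29). A decrease of the size seen for CYP51A1 lies inside the interval of FADS1, so it was not detectable there. Such a decrease lies outside the interval of SCD and, as counted, that of FADS2. FADS2 shares exons on the same strand with FEN1 (11811 and 11840 counts) and on the opposite strand with FADS1, so both counts are uncertain. The median of the 7 fatty acid genes was -0.0096, and the summed level was 1454 and 1456 CPM.

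Among the genes of the SREBP machinery, SREBF1 was higher and the others differed little. SREBF1 (6720, chr17:17811334-17836986, minus strand), which encodes the SREBP more tied to fatty acid synthesis, had 196 counts without and 258 with PPMX-T003, or 4.19 and 5.98 CPM. Its log2 change was 0.51 (0.24 to 0.79), or 1.42-fold. This was the highest value among the 34 genes, from one of the least abundant, at 2 and 3 TPM. SREBF1 overlaps exons of RAI1 (1136 and 1064 counts) on the opposite strand. SREBF2, which encodes the SREBP more tied to cholesterol synthesis, was at 79 and 75 TPM and had 8516 and 7885 counts (0.0062, -0.038 to 0.051). The more abundant of the SREBP genes thus did not differ detectably, and the interval of SREBF2 excludes the value measured for SREBF1.

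Among the 30 matched genes, TCACNCCAC was found in a window of SREBF2 alone, which is why its upstream bases are shown in the same way (chr22:41832965-41833104, plus strand). In these 140 bases the element is at -133, CCAAT lies on the opposite strand at -106, and GC boxes lie at -23 and, on the opposite strand, at -10. Its transcript was level between the libraries.
SREBF2: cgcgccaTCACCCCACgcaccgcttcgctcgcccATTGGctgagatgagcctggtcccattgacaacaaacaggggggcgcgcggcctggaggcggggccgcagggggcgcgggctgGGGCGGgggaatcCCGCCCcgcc

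SCAP, the escort of the SREBP precursors, had 64.6 CPM unexposed and 66.4 CPM exposed (0.039, -0.035 to 0.11). INSIG1, which retains SCAP and is itself an SREBP target, was at 78.4 and 78.9 CPM (0.0087, -0.059 to 0.076). INSIG2, the related retention protein, was at 21.6 and 19.5 CPM (-0.15, -0.28 to -0.013). STARD4, a carrier of cholesterol between membranes, was at 79.2 and 74.6 CPM (-0.087, -0.16 to -0.018). The intervals of INSIG2 and STARD4 held 0 after both fits, where STARD4 was at -0.0094 and 0.059, so no direction is given for STARD4. STARD4 overlaps an antisense transcript of 9 and 16 counts. The median of the 6 genes was 0.0075, and their sum was 430 and 428 CPM. The signs of SREBF2, INSIG1, ACLY and FADS1 changed between the 4 scalings, so no direction is given for them.

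The LXR-related genes lay on both sides of 0, with an exporter lower and a ubiquitin ligase higher. ABCG1 (9619, chr21:42199689-42297244), an exporter of cholesterol, had 504 counts without and 383 with PPMX-T003, or 10.8 and 8.88 CPM (-0.28, -0.47 to -0.084). MYLIP (29116, chr6:16129086-16163887), a ubiquitin ligase that LXR induces and that removes lipoprotein receptors, had 248 and 304 counts, or 5.30 and 7.05 CPM (0.41, 0.16 to 0.66). ABCG1 and MYLIP are both known LXR targets and lay on opposite sides of 0. NR1H2, which encodes LXRβ, was at 26.8 and 30.4 CPM (0.18, 0.070 to 0.30). The interval of NR1H2 held 0 after both fits given below (0.046 and 0.039). ABCA1, the other exporter, had 7 and 12 counts (interval -0.57 to 2.48), so its difference was not detectable at this depth. The median of the 3 genes compared was 0.18, which is the value of NR1H2, and it was 0.046 and 0.039 after the fits.

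The median of the iron-requiring enzymes was slightly lower than that of the other genes as measured, and this came from the 3 sterol enzymes. The 6 enzymes had a median log2 change of -0.070, with 2 of 6 values above 0, 3 of 6 intervals below 0 and 3 that held 0, and their sum went from 629 CPM without to 589 CPM with PPMX-T003 (-0.096, -0.12 to -0.072). The other 28 genes had a median of 0.029, with 8 of 28 intervals below 0 and 7 above, and their sum went from 2862 to 2908 CPM (0.023, 0.012 to 0.034). Over all genes tested, 23.9% of intervals lay below 0 and 21.8% above, and with at least 1000 counts 32.1% and 27.8%. The iron-requiring enzymes of fatty acid synthesis, SCD, FADS1 and FADS2, summed to 383 and 378 CPM (-0.021, -0.052 to 0.0095). Without FADS2, whose exons are shared, the median of the iron-requiring enzymes was -0.12. The groups overlapped, since ABCG1 (-0.28), which is not iron-requiring, lay below CYP51A1 and ACACA (-0.20) lay close to MSMO1. The 3 sterol enzymes have transcripts of low GC content, a class with a median of -0.11 over all genes, and after the fits given below the medians of the groups were closer together.

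A property of the libraries ran alongside these differences. Across the 9949 genes with at least 200 counts and a known transcript, the median log2 change was -0.11 in the lowest of 5 equal classes of transcript GC content (31.8% to 42.1%) and 0.11 in the highest class (58.3% to 74.1%). The genes of the pathway followed the same order, with medians of -0.12 for 7 genes in the lowest, -0.091 for 2, -0.0075 for 8, 0.022 for 8 and 0.15 for 9 in the highest class. The transcripts of CYP51A1 (41.4%), MSMO1 (38.1%) and SC5D (38.2%) all lay in the lowest class, together with HMGCS1, IDI1, INSIG2 and STARD4. In that class, SC5D (-0.12) was close to the median of all genes, while CYP51A1 (-0.27) and MSMO1 (-0.23) were below it. SREBF1 (63.7%), NR1H2 (63.3%) and LSS (59.3%) lay in the highest class.

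A robust fit of the change on the length and GC content of transcripts was then removed. Intervals after a fit are the counting intervals moved by the fitted value, so they leave out the error of the fit itself. Several of these differences were smaller and a few were not. CYP51A1 was then at -0.20 and MSMO1 at -0.15, with intervals still below 0, and SC5D was at -0.015 with an interval that held 0. ACACA was at -0.17 and ABCG1 at -0.31, both still below 0. SREBF1 was at 0.36, MYLIP at 0.41 and EBP at 0.11, all still above 0. After this fit 7 genes, CYP51A1, MSMO1, ACACA, ABCG1, SREBF1, MYLIP and EBP, kept their side of 0 beyond counting error. In contrast, the intervals of ACAT2 (-0.069), FDFT1 (-0.057), SQLE (-0.100) and LSS (0.11) came to hold 0 with values of similar or smaller size, and those of IDI1 (-0.013), INSIG2 (-0.039), STARD4 (-0.0094), PMVK (0.038) and NR1H2 (0.046) with values nearer 0. The intervals of HMGCS1 (0.075) and SCD (0.056) lay above 0. FASN reversed, from higher (0.080) to lower beyond counting error (-0.082, -0.11 to -0.054).

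The fit was repeated with the longest transcript of each gene, a setting chosen after the data were seen. CYP51A1 (-0.22), MSMO1 (-0.17), ACACA (-0.10), ABCG1 (-0.32), SREBF1 (0.41), MYLIP (0.41) and EBP (0.11) again lay beyond counting error on the side measured. With this fit ACAT2, FDFT1, SQLE, LSS and FASN (0.047) also kept their calls, and FDPS (-0.065) and MVD (-0.091) were lower. The median length used for FASN in the first fit was 364 bases. The medians of the iron-requiring and the other genes, -0.070 and 0.029 as measured, were -0.050 and -0.013 after the first fit and -0.034 and -0.024 after the second. The difference between the groups was therefore smaller with either fit, and with the longest transcripts the medians were nearly the same. The part of GC content in these differences was not tested beyond these fits.

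**Figure D3:**
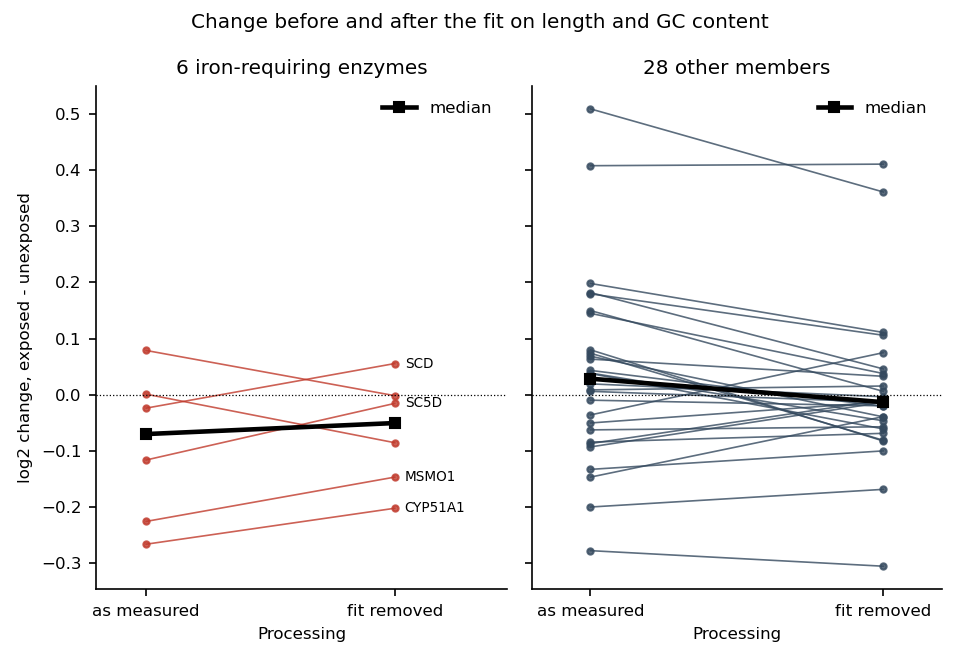
Log2 change, exposed minus unexposed, of the 6 iron-requiring enzymes (left) and 28 other genes (right) as measured and after removal of the fit on length and GC content; each thin line is a gene and the thick line the median. The medians of -0.070 and 0.029 became -0.050 and -0.013, and CYP51A1 and MSMO1 remained the lowest of the 6 enzymes.

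Other genes of the same pathways, from a second list of 38, were also found on both sides of 0. Of these, 29 had at least 20 counts, 7 were higher (24.1%) and 11 lower (37.9%) beyond counting error, against 21.8% and 23.9% of all genes tested and 27.8% and 32.1% of genes with at least 1000 counts. Their median was -0.056, and their sum went from 2775 to 2683 CPM (-0.049, -0.060 to -0.038). After the fits their median was -0.017 and -0.023, close to the -0.014 and -0.024 of the 34 genes. Of the 10 fatty acid genes among the 29, 7 were lower (70%) and 2 higher (20%) as measured, with a median of -0.10. After the fits the median was -0.081 and -0.066, and not all of these calls were kept. ACSL3 was lower as measured (-0.056), had an interval that held 0 after the first fit (-0.047) and was higher after the second (0.074). The lowest by the bound nearest 0 were HSD17B12, a reductase of very long chain fatty acid elongation, with 1421 and 1033 counts (-0.34, -0.46 to -0.23), ACSL1, which activates fatty acids, with 6759 and 5191 counts (-0.26, -0.32 to -0.21), and LBR, a sterol reductase of the nuclear envelope, with 21672 and 17987 counts (-0.15, -0.18 to -0.12). The highest were ELOVL1, an elongase, with 4266 and 4531 counts (0.20, 0.14 to 0.26), NR1H3, which encodes LXRα, with 419 and 487 counts (0.33, 0.14 to 0.53), and TECR, a reductase of elongation, with 2265 and 2340 counts (0.16, 0.080 to 0.25). NR1H3 overlaps exons of ACP2 on the opposite strand, which had 1348 and 1594 counts (0.36, 0.25 to 0.46), and TECR those of DNAJB1 (9887 and 9653 counts), so reads of these partners cannot be told apart. After the first fit HSD17B12 was at -0.30, ACSL1 at -0.24, LBR at -0.077, ELOVL1 at 0.14 and NR1H3 at 0.23, all still beyond counting error, and TECR was at 0.040 with an interval that held 0. LBR and TM7SF2 catalyse the same reduction, and LBR was much the more abundant, at 278 and 241 TPM against 4 and 5 TPM.

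The electron donors of the iron-requiring enzymes were named as a whole after their values were seen. POR, the reductase that passes electrons to CYP51A1 and SQLE, had 48.4 CPM unexposed and 43.0 CPM exposed (-0.17, -0.26 to -0.080), and was at -0.28 after the first fit. POR overlaps exons of TMEM120A (448 and 423 counts) on the opposite strand. CYB5B was at 191 and 188 CPM (-0.022, -0.066 to 0.022). Of these genes, POR alone was beyond counting error. CYB5R3, a reductase of cytochrome b5, was at 42.4 and 45.2 CPM (0.091, -0.000058 to 0.18), and CYB5R1 had 505 and 436 counts (-0.094, -0.28 to 0.093). CYB5A had 0 counts in both libraries.

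**Figure D4:**
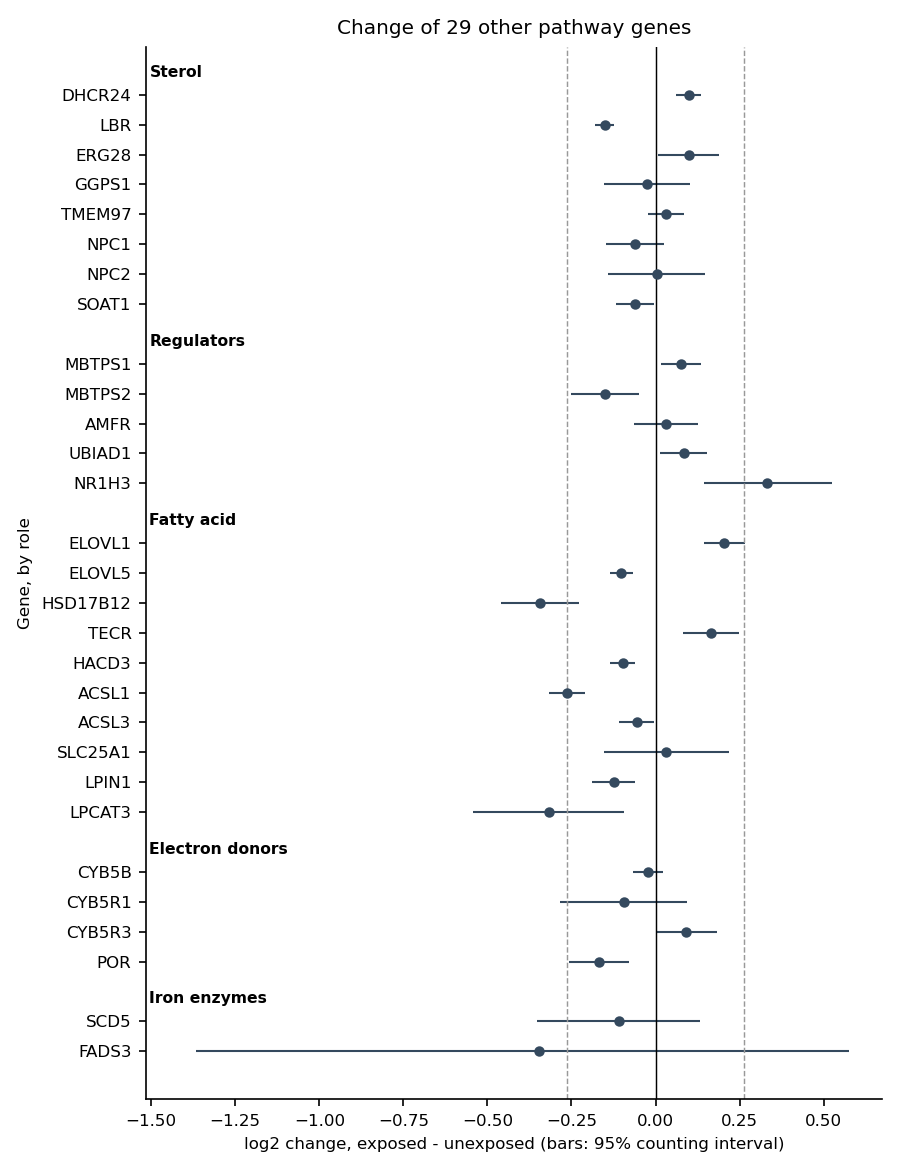
Log2 change, exposed minus unexposed, of the 29 other pathway genes with at least 20 counts, with 95% Clopper-Pearson intervals for counting error (1 library per condition); dashed lines mark 1.2-fold. HSD17B12 (-0.34) and ACSL1 (-0.26) lie left of 0 and NR1H3 (0.33) and ELOVL1 (0.20) right of it.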

How the data were processed

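Polyadenylated RNA of NK92 cells was sequenced as 1 stranded library per condition. Per the submitters' processing notes and methods, the authors trimmed reads with Trimmomatic 0.38, mapped them with HISAT2 2.2.0 (hg38), counted them with StringTie 2.1.3b and compared them with edgeR 3.17. The deposited counts are whole read counts with commas between digits, recorded under other units; no count model was run because each condition has 1 library. The deposited TPM and FPKM, rounded by the authors, were treated as a score, and only TPM was used. Other per-sample columns left unused: 0.

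Counts were scaled by TMM (trimming 30% of log ratios and 5% of levels) with numpy 2.4.6 and pandas 2.3.3 under Python 3.11.15. Intervals came from scipy 1.17.1, the robust fit from statsmodels 0.14.6 and plots from matplotlib 3.10.9. The calculation was tested on simulated data. Transcript length and GC content were medians from GENCODE release 29, known for 87.5% of tested genes. Named genes were all 35 listed, the 3 highest and 3 lowest of the second list (at least 100 counts, ranked on the interval bound nearest 0), and cell type markers, of which 1 is not reported here. The electron donors and ACSL3 were also named, after their values were seen. Members and lists were chosen with earlier results of these data known. Alternatives covered scaling, prior count, count minimum, TPM with a pseudocount of 1, the fit on length and GC content, shared exons, fold threshold and interval level.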

Additional observations from a re-analysis of the deposited data

How the results depend on the processing

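Over the 14 alternative settings, 136 of 147 values for the whole list and its groups stayed within their limits and 11 moved. The limit was 1.5 times for counts of genes, and order statistics of the genes for medians. In groups of 7 genes or fewer these were the lowest and highest gene, so few medians could move. The median of the iron-requiring enzymes at -0.034, against -0.070 as measured, was not scored as moved. The prior count does not enter the intervals, and the minimum of 200 counts kept all 34 genes. Of 372 values for single genes, judged by their counting intervals, 335 stayed, 34 moved and 3 reversed. The count at least 1.2-fold lower went from 2 to 1, losing CYP51A1, with upper quartile scaling (-0.25), after the fit on length and GC content (-0.20) and after the fit with the longest transcripts (-0.22), a setting chosen after the data were seen. With a 1.1-fold threshold 7 genes were higher and 5 lower (20.6% and 14.7%, against 24.0% and 25.2% of all genes), and with 1.5-fold 0 and 0 (against 3.94% and 3.84%). The count lower beyond counting error went from 11 (32.4%, against 23.9% of all genes) to 5 (14.7%) with 99% intervals (against 18.9%) and after the fit (against 22.2%). In both of these settings the share was below that of all genes. It stayed above that of all genes after the fit with the longest transcripts (9, or 26.5%, against 21.0%). The same held with scaling by the median of ratios (13, or 38.2%, against 25.8%). The number below 0 went from 15 (44.1%, against 50.3%) to 23 (67.6%, against 52.1%) after the fit. With the deposited TPM the mevalonate median was -0.094, on a scale where the 7965 genes with at least 10 TPM in both libraries lay lower by a median difference of -0.054 from the counts. Of 34 single genes, 12 changed sign after the fit and 13 with the longest transcripts. Among those called beyond counting error these were FASN (-0.082) after the fit and PMVK (-0.0011) and STARD4 (0.059) with the longest transcripts, and the cause was not tested. With TPM 3 genes changed sign, and with the other scalings between 1 and 3, none of them called. The medians of all 34 genes and of the iron-requiring enzymes lay between -0.042 and 0.019 and between -0.14 and -0.034, each lowest with TPM, where the other genes had a median of -0.011.

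No paired analysis was possible because there is 1 library per condition, which also leaves no replicate to drop. Intervals cover counting error, so the variation between cultures is unknown for every difference. Depth limits ABCA1, TM7SF2, FADS1, SREBF1, MYLIP and FADS2 most.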
